A study of Rattus norvegicus with 12 samples.

Results

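Regulators of G protein signaling (RGS) are the proteins that switch off heterotrimeric G proteins. A G protein-coupled receptor loads the Gα subunit with GTP, and the RGS domain speeds the hydrolysis of that GTP, so that the signal ends sooner. In heart muscle, RGS proteins are known to act on Gi signaling from muscarinic and adenosine receptors, which slows the heart, and on Gq signaling from α1-adrenergic, angiotensin, and endothelin receptors, which drives growth. The subfamilies differ in partners. R4 proteins are mostly small, and R7 proteins are bound to the Gβ5 subunit. The R12 protein Rgs14 carries further domains, and the RZ protein Rgs19 was found as a partner of Gαi.

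The 10 members described here are the RGS genes Rgs2, Rgs3, Rgs4, Rgs5, and Rgs16 (R4), Rgs6 and Rgs11 (R7), Rgs10 and Rgs14 (R12), and Rgs19 (RZ), taken by gene name from the 17301 gene names listed. Each has 1 RefSeq transcript among 18752. RNA was sequenced from adult rat ventricular myocytes (ARVMs) of male Sprague Dawley rats, cultured on laminin and collected 48 h after transduction with adenovirus at a multiplicity of infection (MOI) of 50. The control virus encoded green fluorescent protein (Ad-GFP, 6 samples), and the other encoded full-length human NR4A2, an orphan nuclear receptor, under the cytomegalovirus promoter (Ad-h-NR4A2, 6 samples). Both groups thus carried a virus and no agonist is named for either. The samples of both groups are numbered 24 to 29, and same-numbered samples deviated together from their group means in all 6 pairs.

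Depth was 18800000 to 28000000 fragments per sample, recovered from the steps of the low values. Nr4a2 was at 0.884 ± 0.309 (SD, n = 6) FPKM (fragments scaled to the length of the transcript and to all mapped fragments of the sample) in Ad-GFP samples and 524 ± 70.3 in Ad-h-NR4A2 samples, as far as human transcripts align to the rat gene. The 7 cardiomyocyte markers summed to 34180 to 42960 FPKM in Ad-GFP samples and 30440 to 38430 in Ad-h-NR4A2 samples. Sums of the other marker lists were lower. Pericyte and smooth muscle markers summed to 14.8 to 25.96 FPKM with Ad-GFP and 10.6 to 21.5 with Ad-h-NR4A2, endothelial markers to 7.75 to 26.98 and 6.85 to 26.5, and fibroblast markers to 9.12 to 30.4 and 5.84 to 27.1. Leukocyte markers summed to 7.09 to 17.9 and 37.3 to 49.3 FPKM, and Csf1r alone gave 5.48 to 17.1 and 36.8 to 43.4 of these, while the leukocyte marker Ptprc reached at most 0.0489 FPKM. Col1a2 was listed at 0 in all samples. In cultured cells measured in bulk, fewer cells of a type and less RNA per cell cannot be told apart.

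The stretch before the start site is shown for 4 R4 genes, all on chromosome 13: for Rgs4 and Rgs16, which had the largest rises, for Rgs2, which also rose, and for Rgs5, the neighbour of Rgs4, which did not pass the test. The sequences are the 250 bases ahead of the RefSeq start in the rat build GRCr8, 5′ to 3′ on the strand of the gene, with Rgs2 at chr13:58352667-58352916 (minus strand), Rgs4 at chr13:84475885-84476134 (minus), Rgs16 at chr13:68437870-68438119 (plus), and Rgs5 at chr13:84380827-84381076 (plus). Capitals mark the letters TGACG or AGGTCA on either strand.
Rgs2: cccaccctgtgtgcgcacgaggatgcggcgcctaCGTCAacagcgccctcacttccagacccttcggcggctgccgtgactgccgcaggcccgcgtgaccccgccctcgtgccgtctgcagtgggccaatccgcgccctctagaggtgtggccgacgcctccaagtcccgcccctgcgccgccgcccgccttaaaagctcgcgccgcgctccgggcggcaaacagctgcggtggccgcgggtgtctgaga
Rgs4: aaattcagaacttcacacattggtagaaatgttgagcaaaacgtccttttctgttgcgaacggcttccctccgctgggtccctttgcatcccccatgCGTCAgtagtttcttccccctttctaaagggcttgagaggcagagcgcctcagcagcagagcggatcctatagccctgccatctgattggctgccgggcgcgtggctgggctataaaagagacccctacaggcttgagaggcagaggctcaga
Rgs16: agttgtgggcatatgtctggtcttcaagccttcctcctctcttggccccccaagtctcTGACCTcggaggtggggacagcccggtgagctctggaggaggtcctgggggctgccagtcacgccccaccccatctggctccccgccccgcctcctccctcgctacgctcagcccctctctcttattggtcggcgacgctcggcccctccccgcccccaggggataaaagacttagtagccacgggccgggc
Rgs5: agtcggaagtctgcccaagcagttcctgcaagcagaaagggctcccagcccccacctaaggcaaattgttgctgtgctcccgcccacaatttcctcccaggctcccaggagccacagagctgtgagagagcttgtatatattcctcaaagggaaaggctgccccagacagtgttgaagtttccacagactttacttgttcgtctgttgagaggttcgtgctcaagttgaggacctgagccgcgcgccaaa
The NR4A receptors bind DNA as monomers at AAAGGTCA, and cyclic AMP-regulated factors bind TGACGTCA. Each of these was sought on both strands in the 300 bases from 250 before to 50 after the start, in 33469 rat promoters, of which 1.43% held AAAGGTCA and 1.83% TGACGTCA. Neither was present in the 9 member promoters at hand (no entry for Rgs11). The shorter letters AGGTCA, which lie within AAAGGTCA, and TGACG, which lie within TGACGTCA, were added after that result was seen. AGGTCA was present in 16.2% of all promoters and in 1 of the 9, that of Rgs16, at -192 and at 29, counted from the start site as 0 to the leftmost base. TGACG was present in 21.2% of all promoters and in 3 of the 9, those of Rgs2 (-216), Rgs3 (-29), and Rgs4 (-153). Of the members with TGACG, Rgs2 and Rgs4 rose and Rgs3 fell. Rgs16, with AGGTCA, rose, and Rgs19, which rose, held none of these letters. Neither a match nor its absence in this stretch is evidence on binding, which was not measured.

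The level of each member without NR4A2 was examined first. FPKM is per length and can be compared between genes. In Ad-GFP samples Rgs6 was highest, with a median of 21.9 FPKM, and lay above Rgs19 (8.79) in all 6 samples without overlap of their ranges. Rgs19 exceeded Rgs2 (7.71) in 4 of 6 samples only, so that their order did not exceed the spread. Rgs2 exceeded Rgs5 (3.02) in all 6 samples although their ranges overlapped, and Rgs5 exceeded Rgs10 (1.27) without overlap. Rgs10 and Rgs3 (0.814) overlapped, with the order held in 4 of 6 samples. Below these, Rgs11 (0.324), Rgs16 (0.292), and Rgs4 (0.264) could not be ordered, since each exceeded the next in only 3 or 4 of 6 samples. Rgs14 was at or near 0. Rgs3, Rgs11, and Rgs14 had group means under 1 FPKM in both groups and are marked as low here.

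**Figure D1:**
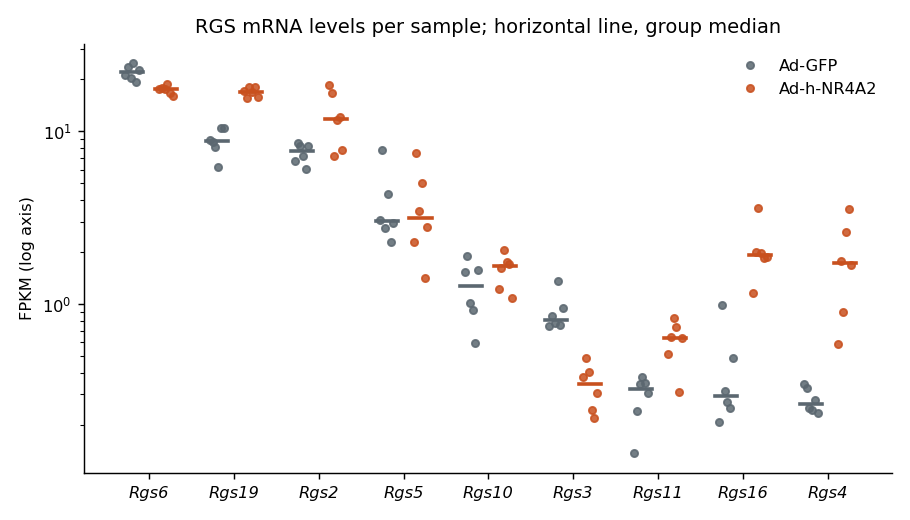
FPKM of 9 RGS genes in each sample (log axis), ordered by the median in Ad-GFP samples. Points are samples (6 per group) and horizontal lines are medians. Rgs6 is highest with Ad-GFP at a median of 21.9 FPKM, and Rgs4 moves from 0.264 to 1.72. Rgs14, listed at 0 in most samples, is not drawn.

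In Ad-h-NR4A2 samples the order was closer at the top and different at the bottom. Rgs6 (median 17.7 FPKM) exceeded Rgs19 (17.0) in 4 of 6 samples, with overlapping ranges. Rgs2 (11.8) exceeded Rgs5 (3.13) in all 6, again with overlapping ranges. Rgs16 (1.93), Rgs4 (1.72), and Rgs10 (1.66) overlapped each other. Rgs10 lay above Rgs11 (0.637) in all 6 samples without overlap, and Rgs11 exceeded Rgs3 (0.343) in all 6 with overlapping ranges.

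The question of the comparison was which of these transcripts change when NR4A2 is overexpressed. Groups were compared on log2(FPKM + 0.1) with limma over all 10950 genes above 0 in all samples. Differential expression required an adjusted p (Benjamini-Hochberg) below 0.05 together with group means that differed at least 1.5-fold. Of the 10 members, 9 were tested and 6 were differentially expressed, beside 15.2% of all genes tested. Of the 9, 5 rose (Rgs2, Rgs4, Rgs11, Rgs16, and Rgs19), beside 7.94% of all genes, and 1 fell (Rgs3), beside 7.24%. At any ratio, 7 of 9 had an adjusted p below 0.05, with Rgs6 added as lower, beside 40.9% of all genes. The groups did not overlap for 5 of 9 (Rgs4, Rgs16, and Rgs19 higher, Rgs3 and Rgs6 lower), beside 21.5%. The median log2 fold change was 0.63 over the 9 tested members, the value of Rgs2, and -0.02 over all genes tested. The filter on values above 0 left out Rgs14, so that these counts do not cover all members. Nor do they cover all RGS genes, since of 3 further ones tested 0 were differentially expressed. The members were chosen with earlier results of these data known.

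**Figure D2:**
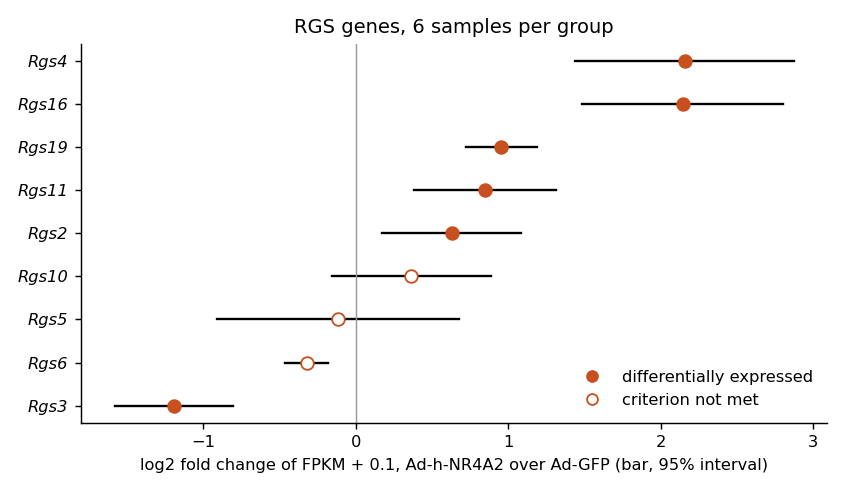
Log2 fold change of FPKM + 0.1, Ad-h-NR4A2 over Ad-GFP, for the 9 tested RGS genes, with 95% intervals from limma (6 samples per group). Filled points were differentially expressed. Rgs4 (2.16) and Rgs16 (2.14) lie highest and Rgs3 (-1.19) lowest, and the intervals of Rgs5 and Rgs10 cross 0.

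Among R4 genes, Rgs4 and Rgs16 rose most. Rgs4 encodes an inhibitor of Gi and Gq signaling, and its RefSeq transcript (NM_017214, 2917 nucleotides) lies on chromosome 13 of Rn5 from 92682956 to 92689247. Its level was 0.233 to 0.346 FPKM with Ad-GFP (median 0.264) and 0.589 to 3.57 with Ad-h-NR4A2 (median 1.72). All Ad-h-NR4A2 samples lay above all Ad-GFP samples, but unevenly, with samples 24 (0.589) and 26 (0.897) lowest and 27 (2.61) and 28 (3.57) highest. The mean ratio was 6.62, from 0.280 ± 0.0474 to 1.85 ± 1.10 (SD, n = 6), and the log2 fold change was 2.16 (SE 0.33, limma adjusted p = 0.00017). The level was higher in 6 of 6 pairs, by 0.63 to 3.28 on the log2 scale. The Ad-GFP values rest on 15 to 21 fragments per sample and the Ad-h-NR4A2 values on 35 to 254. The coefficient of variation was 16.9% with Ad-GFP, where fragment counting alone gives 23.5%, and 59.5% with Ad-h-NR4A2, where it gives 8.97%.

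Rgs16, another inhibitor of Gi and Gq signaling (NM_001077589, 600 nucleotides, chromosome 13 of Rn5 from 76145330 to 76148774), was at 0.207 to 0.981 FPKM with Ad-GFP (median 0.292) and 1.16 to 3.60 with Ad-h-NR4A2 (median 1.93). The groups did not overlap, although Ad-GFP sample 25 (0.981) came near to Ad-h-NR4A2 sample 24 (1.16). The mean rose 4.96-fold, from 0.419 ± 0.292 to 2.08 ± 0.808 (SD, n = 6), with a log2 fold change of 2.14 (SE 0.30, limma adjusted p = 8.65e-05) and a higher level in 6 of 6 pairs. This was a change between few fragments, 2 to 8 in single Ad-GFP samples and 11 to 38 in single Ad-h-NR4A2 samples. Summed over samples there were 25 fragments with Ad-GFP (exact 95% Poisson interval 16.2 to 36.9) and 132 with Ad-h-NR4A2 (110 to 157), intervals that cover counting error only. For both Rgs4 and Rgs16 the exact permutation p was 0.00216, the smallest that 924 splits allow, and within pairs it was 0.0312, the smallest that 64 sign changes allow.

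Rgs2, which acts preferentially on Gq and limits its signaling in heart and vessels, rose less evenly. Its transcript (NM_053453, 685 nucleotides) is listed on chromosome 13 from 65556707 to 65833989, a stretch that the files also give for Uchl5, so that they give no position of its own for Rgs2. The level was 6.03 to 8.62 FPKM with Ad-GFP (median 7.71) and 7.21 to 18.5 with Ad-h-NR4A2 (median 11.8). Ad-h-NR4A2 samples 24 (18.5) and 25 (16.7) were highest, while samples 26 (7.21) and 29 (7.76) lay within the Ad-GFP range and below their own pairs (8.23 and 8.24). The means were 7.51 ± 1.01 and 12.3 ± 4.59 (SD, n = 6), a ratio of 1.64. The log2 fold change was 0.63 (SE 0.21, limma adjusted p = 0.0289, two-sided exact permutation p = 0.0303 over splits that ignore the pairing), with a higher level in 4 of 6 pairs. When signs were exchanged within pairs instead, the exact p was 0.125 (8 of 64 sign changes). The call did not hold with several samples or pairs left out. Without Ad-h-NR4A2 sample 24 or 25 the log2 fold change was 0.50 or 0.53 (limma adjusted p = 0.0553 or 0.0666), and without pair 24 it was 0.47 (0.0947). Without Ad-GFP sample 24 or 28, or pair 25, 27, or 28, the fold change moved less, to 0.56 to 0.62, and the adjusted p was 0.0538, 0.0606, 0.0747, 0.0781, or 0.0928. Uchl5, at a mean of 12.5 and 11.5 FPKM, had a log2 fold change of -0.11 (SE 0.09, limma adjusted p = 0.350, and 0.0335 with the replicate block).

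Rgs3, which acts on Gi and Gq and also binds Gβγ, was the member that fell past both limits. Its transcript (NM_019340, 3712 nucleotides, chromosome 5 from 82606811 to 82690342) was low in both groups, at 0.742 to 1.36 FPKM with Ad-GFP (median 0.814) and 0.218 to 0.485 with Ad-h-NR4A2 (median 0.343). The groups did not overlap, and Ad-GFP sample 27 (1.36) stood above the other control samples. The mean fell from 0.904 ± 0.234 to 0.340 ± 0.102 (SD, n = 6), a ratio of 0.376, with a log2 fold change of -1.19 (SE 0.18, limma adjusted p = 0.000136) and a lower level in 6 of 6 pairs. These levels rest on 57 to 122 fragments in single Ad-GFP samples and 19 to 47 in single Ad-h-NR4A2 samples. The R4 genes therefore did not share a direction, with Rgs2, Rgs4, and Rgs16 higher and Rgs3 lower.

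**Figure D3:**
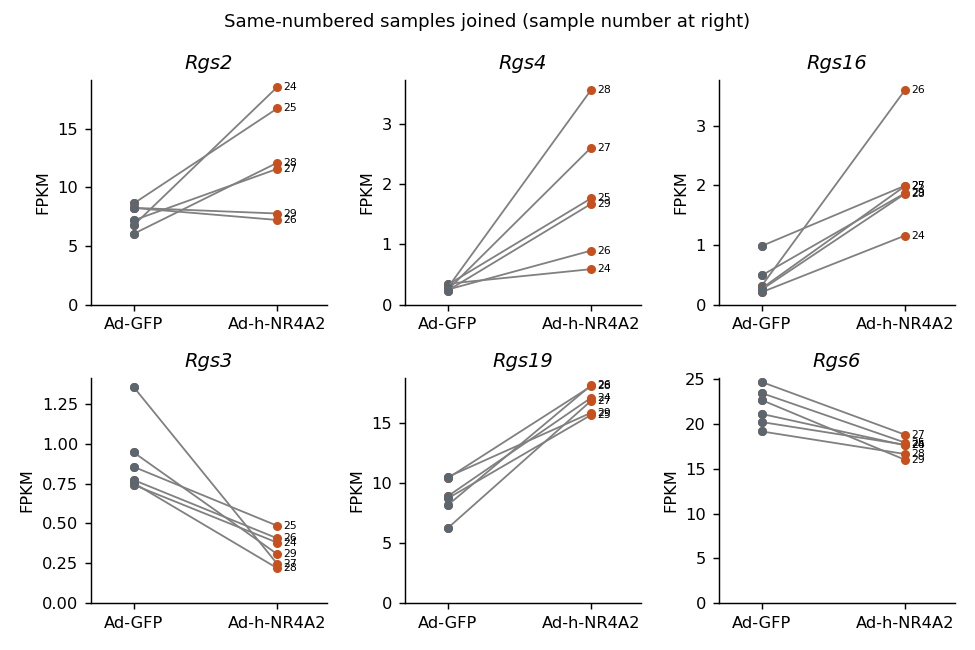
FPKM of 6 RGS genes with same-numbered samples joined, Ad-GFP at left and Ad-h-NR4A2 at right, on linear axes from 0. All 6 lines rise for Rgs4, Rgs16, and Rgs19 and fall for Rgs3 and Rgs6, whereas for Rgs2 4 lines rise and those of samples 26 and 29 fall.

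Rgs5, known as a marker of pericytes and vascular smooth muscle, is the neighbour of Rgs4 on chromosome 13 (NM_019341, 546 nucleotides, 92595346 to 92631357), with 51598 bases and 0 other listed transcripts between them. Its level was 2.29 to 7.85 FPKM with Ad-GFP (median 3.02) and 1.41 to 7.48 with Ad-h-NR4A2 (median 3.13). The log2 fold change was -0.12 (SE 0.37, 95% interval -0.91 to 0.68, limma adjusted p = 0.830), and the level was higher in 2 pairs and lower in 4. With the replicate block the SE was 0.12 and the adjusted p 0.449. What varied was the sample number. Sample 25 was highest in both groups (7.85 and 7.48 FPKM) and sample 28 lowest in both (2.29 and 1.41).

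The marker lists were read by the sample number in which they were highest. Of the 8 pericyte and smooth muscle markers, 3 were highest in sample 25 of both groups, as Rgs5 was. Pdgfrb was at 2.13 and 2.27 FPKM there against 0.738 and 0.506 in sample 28, Notch3 at 1.54 and 1.64 against 0.538 and 0.477, and Kcnj8 at 0.943 and 1.34 against 0.363 and 0.274. The other 5 did not share this pattern. Myh11 was highest in sample 28 of both groups (3.66 and 2.44 FPKM), where Rgs5 was lowest, and Acta2 in sample 24 of both (12.7 and 11.0). Cspg4 was highest in samples 29 and 27, Tagln in 24 and 25, and Cnn1 in 28 and 25. In the other lists, sample 25 was highest in both groups for 4 of 7 endothelial markers (not for Kdr, Tek, and Vwf), 4 of 7 fibroblast markers above 0, 1 of 6 leukocyte markers above 0, and 3 of 7 cardiomyocyte markers. Of the pericyte and smooth muscle markers 7 were tested. With Ad-h-NR4A2 0 were higher and 2 were lower, beside 7.94% and 7.24% of all genes tested. Those lower were Cspg4 (log2 fold change -0.80) and Myh11 (-0.61). The part of such cells in the Rgs5 level was not tested.

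**Figure D4:**
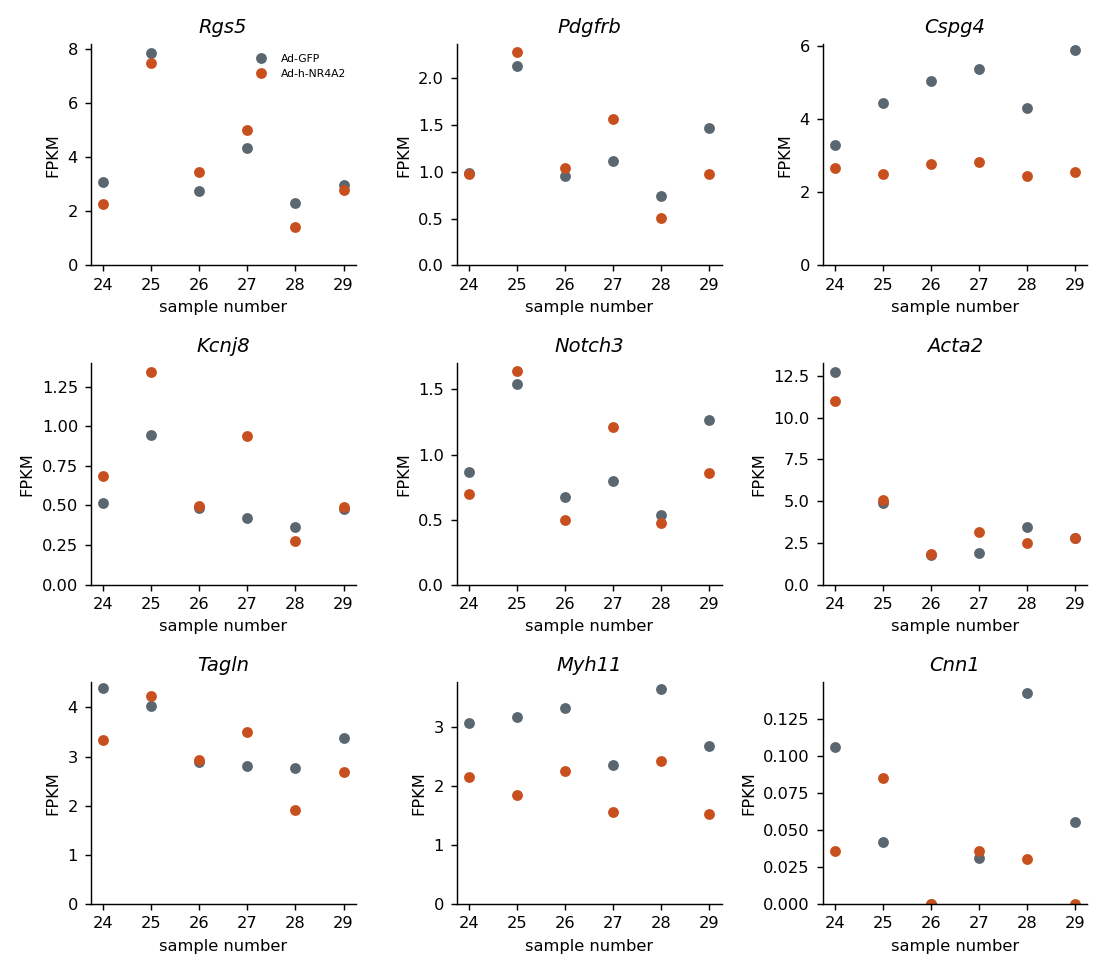
FPKM of Rgs5 and of all 8 pericyte and smooth muscle markers against the sample number, for both groups (1 point per sample, linear axes from 0). Sample 25 is highest in both groups for Rgs5 (7.85 and 7.48 FPKM), Pdgfrb, Kcnj8, and Notch3, whereas Myh11 is highest in sample 28 and Acta2 in sample 24 of both groups.

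Of the R7 genes, Rgs6 is known in heart for ending muscarinic signaling to the atrial potassium channel of Kcnj3 and Kcnj5. Its transcript (NM_019342, 2240 nucleotides, chromosome 6 from 114452070 to 114736790) was at 19.2 to 24.7 FPKM with Ad-GFP (median 21.9) and 16.00 to 18.8 with Ad-h-NR4A2 (median 17.7). Every Ad-h-NR4A2 sample lay below every Ad-GFP sample. The decrease was small, with a ratio of 0.797 (from 21.9 ± 2.08 to 17.4 ± 0.992, SD, n = 6) and a log2 fold change of -0.32 (SE 0.07, limma adjusted p = 0.00151), so that it did not reach the 1.5-fold limit. It is the member with most fragments, 764 to 1321 per sample, and the level was lower in 6 of 6 pairs.

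Rgs11, the other R7 gene among the 10 members and best known from retinal bipolar cells, moved the opposite way at a low level (NM_019338, 2156 nucleotides, chromosome 10 from 15383438 to 15391694). It was at 0.137 to 0.376 FPKM with Ad-GFP (median 0.324) and 0.311 to 0.827 with Ad-h-NR4A2 (median 0.637). Only Ad-h-NR4A2 sample 28 (0.311) fell within the Ad-GFP range, and it was below its own pair (0.349). The mean ratio was 2.09, from 0.292 ± 0.0894 to 0.610 ± 0.181 (SD, n = 6), with a log2 fold change of 0.85 (SE 0.22, limma adjusted p = 0.00645, two-sided exact permutation p = 0.00866, within pairs 0.0625) and a higher level in 5 of 6 pairs. These values rest on 6 to 19 fragments in single Ad-GFP samples and 16 to 40 in single Ad-h-NR4A2 samples.

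The partners of R7 proteins were read beside them. Gnb5, the Gβ5 subunit that R7 proteins require, was at 11.1 ± 1.27 and 12.0 ± 1.39 FPKM (SD, n = 6), higher in 6 of 6 pairs by a small amount (log2 fold change 0.11, SE 0.10, limma adjusted p = 0.395, and 0.0496 with the replicate block). Rgs7bp, which anchors R7 complexes at the membrane, fell from 1.74 ± 0.487 to 0.444 ± 0.222 FPKM (log2 fold change -1.82, SE 0.29, limma adjusted p = 0.000199) and was lower in 6 of 6 pairs. In the list of partners and GoLoco proteins, 6 of 8 genes were tested. Of these, 0 rose and 2 fell, beside 7.94% and 7.24% of all genes tested. The other that fell was Gpsm2, a GoLoco protein that binds Gαi, from 1.65 ± 0.235 to 0.934 ± 0.0806 FPKM (log2 fold change -0.75).

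The R12 gene Rgs10, a small protein that acts on Gαi (NM_019337, 843 nucleotides, chromosome 1 from 206829264 to 206870538), was at 0.592 to 1.89 FPKM with Ad-GFP (median 1.27) and 1.08 to 2.07 with Ad-h-NR4A2 (median 1.66). The groups overlapped, and the level was higher in 3 pairs and lower in 3. The log2 fold change was 0.36 (SE 0.24, 95% interval -0.16 to 0.88, limma adjusted p = 0.255), an interval that leaves room for no change and for a rise past 1.5-fold, at 11 to 34 fragments per sample.

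Rgs14, which joins an RGS domain to a GoLoco motif and is known best from the hippocampus (NM_053764, 2857 nucleotides, chromosome 17 from 11887270 to 11901352), was not detectable at this depth in most samples. It had 1 fragment in each of 3 Ad-GFP samples (0.0133 to 0.0198 FPKM) and was listed at 0 in the other 3 and in all 6 Ad-h-NR4A2 samples. A count of 0 allows up to 3 fragments, or 0.0439 to 0.0509 FPKM in the 3 Ad-GFP samples at 0 and 0.0407 to 0.0517 in the Ad-h-NR4A2 samples, so that no fold is given.

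The RZ gene Rgs19, also known as the Gα-interacting protein GAIP, rose within a narrow range (NM_021661, 1291 nucleotides, chromosome 3 from 180905217 to 180910056). It was at 6.23 to 10.5 FPKM with Ad-GFP (median 8.79) and 15.7 to 18.1 with Ad-h-NR4A2 (median 17.0). The groups stood well apart. The mean ratio was 1.92, from 8.81 ± 1.58 to 16.9 ± 1.050 (SD, n = 6), with a log2 fold change of 0.95 (SE 0.11, limma adjusted p = 1.23e-05) and a rise in 6 of 6 pairs. It rests on 178 to 332 fragments in single Ad-GFP samples and 412 to 526 in single Ad-h-NR4A2 samples.

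These changes altered the make-up of the transcripts of the 10 members, described here without a test and without the further RGS genes. The FPKM of the 10 members summed to 45.3 ± 4.67 (SD, n = 6) in the controls and to 56.9 ± 5.57 with Ad-h-NR4A2. Rgs6 made up 44.3% to 54.2% of this sum in Ad-GFP samples and 27.9% to 33.4% in Ad-h-NR4A2 samples. The mean share of Rgs19 went from 19.7% ± 4.27 to 30.0% ± 3.53 and that of Rgs2 from 16.6% ± 1.62 to 21.3% ± 6.55. By subfamily, R7 went from 49.2% ± 3.32 to 31.9% ± 2.31 and R4 from 28.4% ± 3.89 to 35.3% ± 5.73, while R12 was at 2.74% ± 0.882 and 2.77% ± 0.637. The gain in the mean sum thus lay mostly in Rgs19 and Rgs2, since Rgs4 and Rgs16, with the largest fold changes, remained below 4 FPKM. It was not shared by all pairs. The sums overlapped between groups (40.13 to 52.94 with Ad-GFP and 47.96 to 64.27 with Ad-h-NR4A2), and pair 29 had 47.94 and 47.96. In pairs 26 and 29 Rgs2 was lower with Ad-h-NR4A2 (7.21 against 8.23 FPKM and 7.76 against 8.24).

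**Figure D5:**
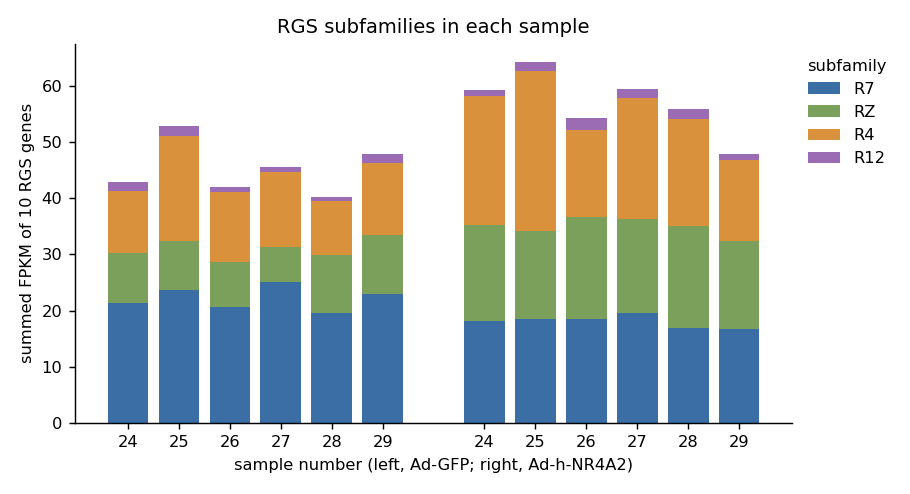
Summed FPKM of the 10 RGS genes in each sample, stacked by subfamily, with Ad-GFP samples at left and Ad-h-NR4A2 samples at right (bars start at 0). R7, mainly Rgs6, makes up 49.2% of the sum on average in the controls and 31.9% with Ad-h-NR4A2, where the RZ part (Rgs19) is larger in every pair.

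Other genes of the RGS cycle were read from lists. Their counts stand beside those of all genes tested, of which 7.94% rose and 7.24% fell past both limits. At any ratio, 40.9% of all genes had an adjusted p below 0.05. Of 12 further RGS genes, 9 were listed and 3 tested (Rgs7, Rgs9, and Rgs12, named after their values were seen), and 0 were differentially expressed. Rgs7 was at 1.21 ± 0.303 and 1.22 ± 0.212 FPKM (log2 fold change 0.02, SE 0.16). The log2 fold change was -0.14 for Rgs9 (SE 0.21) and 0.43 for Rgs12 (SE 0.19, limma adjusted p = 0.0938). Of the genes with an RGS-like domain but no RGS symbol, 13 were tested, 2 rose and 1 fell. The receptor kinase Grk5 rose from 28.1 ± 8.02 to 79.5 ± 11.1 FPKM and Adrbk2, which encodes GRK3, from 1.198 ± 0.659 to 3.33 ± 0.659, both with a log2 fold change of 1.54. Grk6 fell from 7.32 ± 0.806 to 4.60 ± 0.614. Among the 6 enzymes of the N-degron pathway, which destroys Rgs4, Rgs5, and Rgs16 proteins through an N-terminal cysteine, 0 were differentially expressed and 2 had an adjusted p below 0.05 at a smaller ratio.

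The Gα subunits are the substrates of RGS proteins. Of 10 tested, Gnai1, a Gi subunit, had 1.73 ± 0.356 FPKM with Ad-GFP and rose to 4.15 ± 1.12 with Ad-h-NR4A2 (log2 fold change 1.19, SE 0.20), whereas Gna13 had 15.4 ± 1.77 FPKM and fell to 9.80 ± 1.40 (-0.65, SE 0.10), while 8 did not reach the limits. Of all genes tested, 7.94% rose and 7.24% fell past both limits, shares to read beside the counts for Gα subunits, receptors, and effectors. These lists were chosen with earlier results of these data known. Of 15 receptors tested, 5 rose and 6 fell. Among them were falls of the sphingosine receptor S1pr3 (log2 fold change -2.04), the α1-adrenergic receptors Adra1d (-1.42) and Adra1a (-1.41), and the adenosine receptor Adora1 (-1.26). The adenosine receptor Adora2a rose at a low level, from 0.361 ± 0.241 to 1.66 ± 0.765 FPKM (log2 fold change 1.96). Its groups overlapped, although it was higher in 6 of 6 pairs. Of 8 effectors tested, 4 rose and 0 fell. The channel subunit Kcnj5 rose from 11.2 ± 3.08 to 44.7 ± 11.6 FPKM (log2 fold change 2.00), the adenylyl cyclase Adcy6 from 17.6 ± 4.77 to 56.7 ± 4.76 (1.72), and the phospholipases Plcb1 (1.64) and Plcb4 (0.82) rose too. The median log2 fold change was -0.21 over the Gα subunits, -0.14 over the receptors, and 0.48 over the effectors, beside -0.02 over all genes tested.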

How the data were processed

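RNA from 12 ARVM cultures (6 Ad-GFP and 6 Ad-h-NR4A2) was sequenced in 1 run from stranded mRNA libraries. The authors used STAR for alignment of paired-end reads to Rn5 and Cufflinks for the FPKM of each RefSeq transcript. The deposited FPKM are not counts, and 225016 of 225024 values have confidence limits equal to the FPKM, so that these limits were not used. Groups come from the sample titles, and columns of other samples numbered 0.

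For genes with several transcripts, the one of highest mean FPKM was used. Values on the log2(FPKM + 0.1) scale entered limma 3.58.1 (lmFit, eBayes with trend) in R 4.3.3, unpaired as in the study, two-sided, with Benjamini-Hochberg adjustment over 10950 genes. The pseudocount understates changes of low genes. Same-numbered samples correlated in their deviations from the group means (r from 0.347 to 0.623, all above 0.1), and the number was used as a replicate block in an alternative fit. The study speaks of 6 independent experiments with myocytes from different rats, so that same-numbered cultures may share a rat, which the labels do not state. Of values at most 6 fragments from transcripts of 500 to 3000 nucleotides, 99.4% to 100.0% per sample were whole within 0.05, which gave the depth and fragment numbers. On simulated data with 200 of 10950 genes changed by a log2 of 1.5, the fit called 193 rightly and 5 wrongly, and 0 when no gene was changed. The simulated samples were independent, without the correlation of same-numbered samples. Smaller changes, such as those of Rgs2, Rgs3, Rgs11, and Rgs19, were not simulated.

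All 10 members are named. From other lists, genes past both limits are named, at most 6 per list by size of change, with Gnb5 and Nr4a2 named whatever their value, and 1 gene that this rule takes is not reported here. The members and lists were chosen with earlier results of these data known. Promoters are from RefSeq (GRCr8) with coordinates that are not those of Rn5. Further software was SciPy 1.17.1 and NumPy 2.4.6 (exact tests), pandas 2.3.3 and Python 3.11.15 (tables), and Matplotlib 3.10.9 (plots).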

Additional observations from a re-analysis of the deposited data

Results flagged for a closer look

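Of 59 groups of 6 values examined for the members and the other named genes, 5 held 1 sample far from the rest by Dixon's test, which chance gives in about 1 of 20 groups. For the members it was 4 of 19 groups. Rgs3 in Ad-GFP sample 27 was at 1.356 FPKM (group median 0.814). Rgs5 in Ad-GFP sample 25 was at 7.846 FPKM (median 3.02), and the same-numbered Ad-h-NR4A2 sample was at 7.48 FPKM. Rgs16 in Ad-GFP sample 25 was at 0.9813 FPKM (median 0.292), and in Ad-h-NR4A2 sample 26 at 3.598 FPKM (median 1.93). Gnb5 in Ad-GFP sample 28 was at 8.592 FPKM (median 11.5), and its pair was the lowest Ad-h-NR4A2 sample, at 9.79 FPKM.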

How the results depend on the processing

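Over 27 or 28 alternatives per member, Rgs3, Rgs4, Rgs11, Rgs16, and Rgs19 kept their direction and stayed differentially expressed at the limits used, and Rgs6 and Rgs10 stayed outside them. Rgs2 lost its call in 8 of 28, each with 1 sample or pair left out, at log2 fold changes from 0.47 to 0.79 over all alternatives. Rgs5 changed sign without Ad-GFP sample 25 (0.11) and without Ad-h-NR4A2 sample 28 (0.11), within a range of -0.35 to 0.11 over all alternatives, with no call in any. Fold changes of low genes depended on the pseudocount: at 1 and at 0.01 they were 1.07 and 2.46 for Rgs4, 1.10 and 2.42 for Rgs16, 0.31 and 1.045 for Rgs11, and -0.50 and -1.40 for Rgs3.

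At a ratio of at least 2, 803 genes, 3 rising members, and 1 falling member passed, without Rgs2 (ratio 1.64) and Rgs19 (1.92). With no limit on the ratio, 4484 genes (40.9% of those tested), 5 rising members, and 2 falling members passed. At a mean FPKM of at least 1, 1252 genes, 4 rising members, and 0 falling members passed, with Rgs11 and Rgs3, which are below that level, not tested. With 1 sample or pair left out, 1540 to 1770 genes, 4 to 5 rising members, and 1 falling member passed. With the replicate block 1825 genes passed, and no call of a member changed. In exact tests of single members by sign changes within pairs, chosen after seeing the data, p was 0.125 for Rgs2 and 0.0625 for Rgs11, and 0.0312 for Rgs3, Rgs4, Rgs6, Rgs16, and Rgs19. Depth limits Rgs14, Rgs16, Rgs11, and Rgs10, at few fragments per sample. It also limits Rgs4 with Ad-GFP (15 to 21 fragments), and Rgs5 and Rgs3, which went down to 14 and 19 in single Ad-h-NR4A2 samples.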
